A study of Homo sapiens with 8 samples.

Results

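Collagens are the triple-helical proteins of the extracellular matrix, and each chain of each type has a gene of its own, with a symbol made of COL, the type number, A and the chain number. Of the 23368 genes listed for each library, 43 had such a symbol. Membership went by the symbol alone, but the family itself was chosen with earlier results of these data known. Of these 43 genes, 24 were detected, which means at least 1 CPM (the count scaled to the library's total, as is usual for RNA-seq) in at least 2 of the 8 libraries. They were 6 of 11 fibrillar chains, 4 of 6 chains of type IV, the collagen of basement membranes, and 14 of 26 chains of other types. Over all listed genes, 55.9% passed the same rule.

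The RNA came from U87MG cells, an established cell line from a human glioblastoma, and the study asked how their genes responded to enzalutamide, an antagonist of the androgen receptor. There were 4 groups of 2 libraries each, namely untreated cells (control) and cells exposed to enzalutamide for 4, 24 or 48 h. Every group was grown in DMEM with serum, and the labels give no concentration of the drug, no vehicle and no harvest time for the controls, so the effect of the drug and of time in culture cannot be told apart. The labels' extraction text places the harvest after a differentiation that no other label mentions. Nothing in the labels ties the paired libraries of a group to separate cultures. The p-values therefore take in no more than the variation among these libraries, part or all of which could be technical, and all results describe 1 cell line.

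Collagen chains join into triple helices within the endoplasmic reticulum, where prolines and lysines are hydroxylated and the helix is held by the chaperone HSP47 before export. Fibrillar collagens are cut at both ends outside the cell and align into cross-linked fibrils, type IV forms the mesh of basement membranes, and the other types coat fibrils, form beaded filaments, anchor epithelia or span the cell membrane. Healthy brain tissue holds little fibrillar collagen, and glioblastomas of mesenchymal character are known for making more of it.

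Total counts were between 24620833 and 37162565 per library, and levels below are CPM scaled by trimmed mean of M-values (TMM) factors of 0.87 to 1.08. The collagen chain genes held 0.614 and 0.645% of all counts in control, 0.679 and 0.616% after 4 h, 0.685 and 0.685% after 24 h but 0.353 and 0.394% after 48 h. All 10 mesenchymal glioma markers checked were detected, while of 8 astrocyte and glial progenitor markers 3 were. The 3 were SLC1A3 at 4.36 to 24.8 CPM, OLIG2 at 1.35 to 2.72 and SLC1A2 at 0.138 to 1.08. Of those not detected, GFAP was at 0.0688 to 0.633 CPM and AQP4 at 0. Within a group the counts of the collagen genes varied beyond counting error, with a chi-square over its degrees of freedom of 10.5 to 29.3 in the first 3 groups and 125 after 48 h. Over all tested genes the same value was 4.63 to 15.1 in the first 3 groups and 21.1 after 48 h.

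The 4 promoter stretches below belong to genes whose courses are described in detail. COL5A1, COL5A3 and COL7A1 were among the members that rose before 48 h. COL12A1 was the only detected member whose rise from control at 48 h passed the test described below. Each is the RefSeq sequence (GRCh38.p14) of the 250 bases before the transcription start, cut in COL5A1 to the 219 bases that lie before any annotated exon, and each is written 5′ to 3′ on the gene's own strand. Capitals mark matches on either strand to CCAAT (the CCAAT box), GGGCGG (the GC box bound by SP1) and TATAAA (the TATA box).
COL5A1 (chr9:134641555-134641773, + strand): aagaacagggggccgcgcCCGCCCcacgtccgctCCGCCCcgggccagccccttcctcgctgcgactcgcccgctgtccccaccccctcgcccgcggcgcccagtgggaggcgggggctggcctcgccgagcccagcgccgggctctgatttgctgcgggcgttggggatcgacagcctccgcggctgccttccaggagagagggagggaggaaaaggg
COL5A3 (chr19:10010505-10010754, - strand): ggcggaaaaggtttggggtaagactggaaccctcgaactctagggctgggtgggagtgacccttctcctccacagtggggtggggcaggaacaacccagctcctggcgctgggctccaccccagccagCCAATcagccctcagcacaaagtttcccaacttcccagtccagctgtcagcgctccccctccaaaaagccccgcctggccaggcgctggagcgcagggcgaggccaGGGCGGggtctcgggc
COL7A1 (chr3:48595330-48595579, - strand): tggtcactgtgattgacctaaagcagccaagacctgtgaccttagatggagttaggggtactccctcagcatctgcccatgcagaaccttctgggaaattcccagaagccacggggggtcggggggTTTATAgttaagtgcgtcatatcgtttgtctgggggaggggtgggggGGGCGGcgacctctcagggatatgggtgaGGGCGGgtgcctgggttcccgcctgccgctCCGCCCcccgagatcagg
COL12A1 (chr6:75206054-75206303, - strand): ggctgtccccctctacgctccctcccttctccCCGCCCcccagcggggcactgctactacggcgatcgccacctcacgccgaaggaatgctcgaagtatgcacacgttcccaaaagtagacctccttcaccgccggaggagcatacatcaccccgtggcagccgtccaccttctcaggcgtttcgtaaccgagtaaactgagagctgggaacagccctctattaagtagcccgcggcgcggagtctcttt
Promoters were found for 31 of the 43 members. In the 250 bases before the start, 19 of the 31 held a GC box, as did 42.6% of 35116 RefSeq promoters, 9 held CCAAT (32% of all promoters) and 7 held TATAAA (10.7%). CAGAC, the core of the element that SMAD proteins bind, was in 11 of the 31 and in 38% of all promoters. The full element of the endoplasmic reticulum stress response matched in none of the 31 and in 0.074% of all promoters. A match is a run of letters and not a shown binding site. The 3 pairs of type IV genes lie head to head on opposite strands, with starts 127 bases apart for COL4A1 and COL4A2, 419 for COL4A3 and COL4A4, and 1416 for COL4A5 and COL4A6.

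Type VI collagen, which forms beaded filaments around cells, dominated the collagen messages of U87MG cells. Its 3 detected genes carried 70.7 and 71.1% of all collagen counts in the control libraries, and per kilobase of transcript they were the highest of the family. COL6A2 stood at 367 and 360.1 CPM per kilobase in the controls, COL6A1 at 198 and 191 and COL6A3 at 182 and 205, so the last 2 overlapped. COL1A2 followed at 126 and 126 CPM per kilobase, apart from all genes above and below it. After a wide gap came COL13A1 at 24.9 and 22.7, COL1A1 at 22.0 and 22.4, COL8A1 at 17.2 and 19.4, COL5A1 at 17.2 and 18.0 and COL5A2 at 15.8 and 17.0 CPM per kilobase, where COL13A1 was above COL1A1 in both libraries, COL8A1 and COL5A1 overlapped, and COL5A2 lay below both. The least expressed detected members in the controls were COL5A3 at 0.229 and 0.252 and COL4A3 at 0.196 and 0.306 CPM per kilobase, which overlapped.

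The detection threshold fell between COL9A2, whose second highest library had 1.36 CPM by library total, and COL19A1 and COL11A1, at 0.977 and 0.975. COL4A1, at 0.793, was also just outside, although its start lies 127 bases from that of the detected COL4A2. The members tested but not detected were COL4A1, COL11A1, COL3A1, COL17A1, COL19A1 and COL8A2. Those too low to test were COL2A1, COL11A2 and COL24A1 among fibrillar chains, COL4A4 in type IV, and COL6A5, COL6A6, COL9A1, COL9A3, COL14A1, COL20A1, COL21A1, COL25A1 and COL28A1 among the rest.

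**Figure D1:**
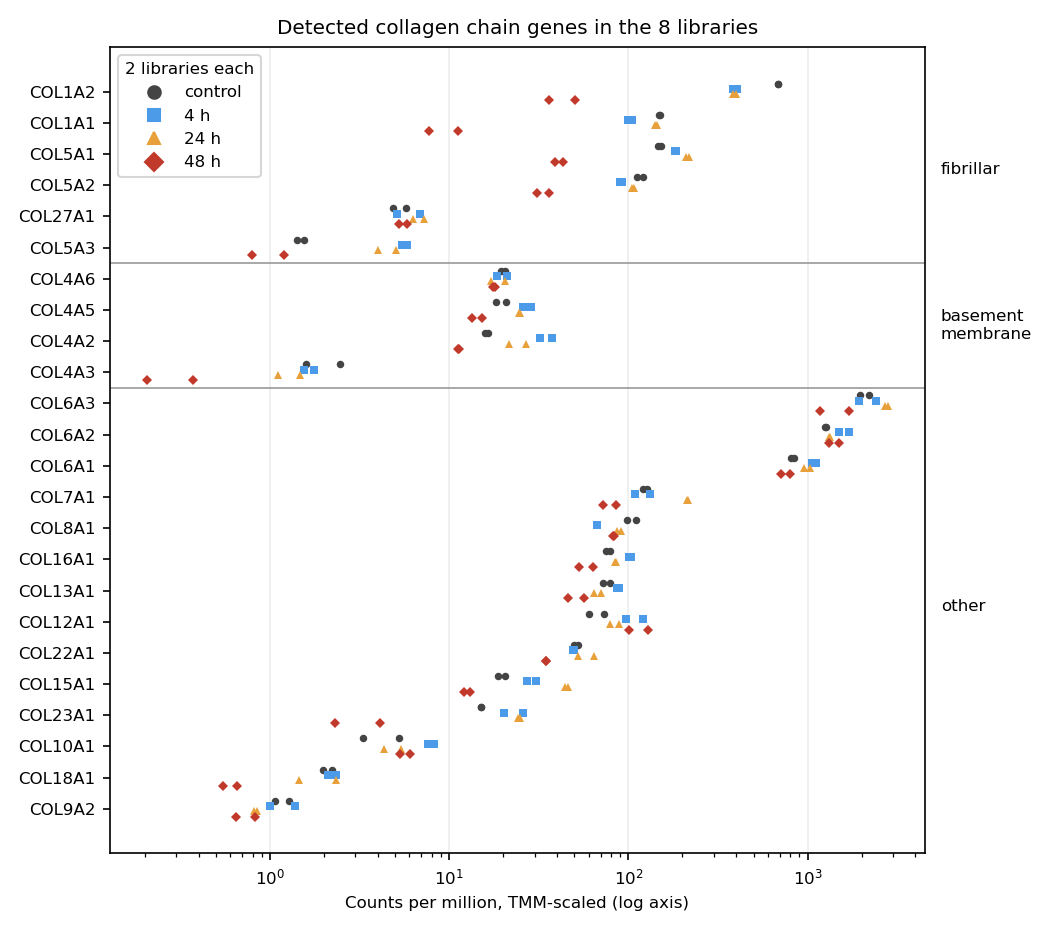
Level of each of the 24 detected collagen chain genes in each of the 8 libraries, in TMM-scaled CPM on a log axis, with 1 symbol per library and 1 row per gene, grouped by class. Red diamonds for 48 h lie far to the left in COL1A2 (35.9 and 50.2 CPM against 680.4 and 682 in control) and COL1A1, and to the right of control in COL12A1.

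Over the whole family, members rose more often than they fell at 4 h and 24 h, and at 48 h they fell. Differences were tested with edgeR's quasi-likelihood test over all 14448 genes that passed its filter on low counts, and a gene rose or fell where its Benjamini-Hochberg adjusted p was under 0.05. At 4 h, 11 of the 24 detected members rose and 4 fell, against 28.6% of all tested genes called, 15% higher and 13.6% lower. Of the 11, 2 rose at least 2-fold, as did 2.44% of all genes. At 24 h, 8 rose and 2 fell, against 22.3% of all genes (12.9% higher and 9.39% lower), and 2 of the 8 rose at least 2-fold, as did 1.69% of all genes. At 48 h, 1 rose and 16 fell, against 66.9% of all genes (33.3% higher and 33.5% lower), and 7 of the 16 fell at least 2-fold, as did 15.8% of all genes. The median log2 change of the detected members was 0.20 at 4 h, 0.19 at 24 h and -0.56 at 48 h, where that of all genes was 0.00, 0.01 and -0.02. The 3 comparisons share the control libraries. In bulk RNA, fewer cells that make a collagen and less of its RNA per cell cannot be told apart.

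These counts depended on single libraries mainly at 24 h. There 10 members were called with all libraries, 6 without control replicate 1, 6 without control replicate 2 and 5 without 24 h replicate 1. Scaling by library totals alone, which shifted all log2 changes at 48 h by -0.28, gave 1 higher and 20 lower at 48 h. Correcting for the length and GC content of transcripts gave 3 higher and 12 lower. The shares of all genes called in these other fits are not given here, so their counts show only how the calls of members moved. Among the 6 members tested but not detected, COL4A1 rose at 4 h, COL3A1 fell at 24 h, and COL11A1, COL19A1, COL3A1 and COL8A2 fell at 48 h.

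**Figure D2:**
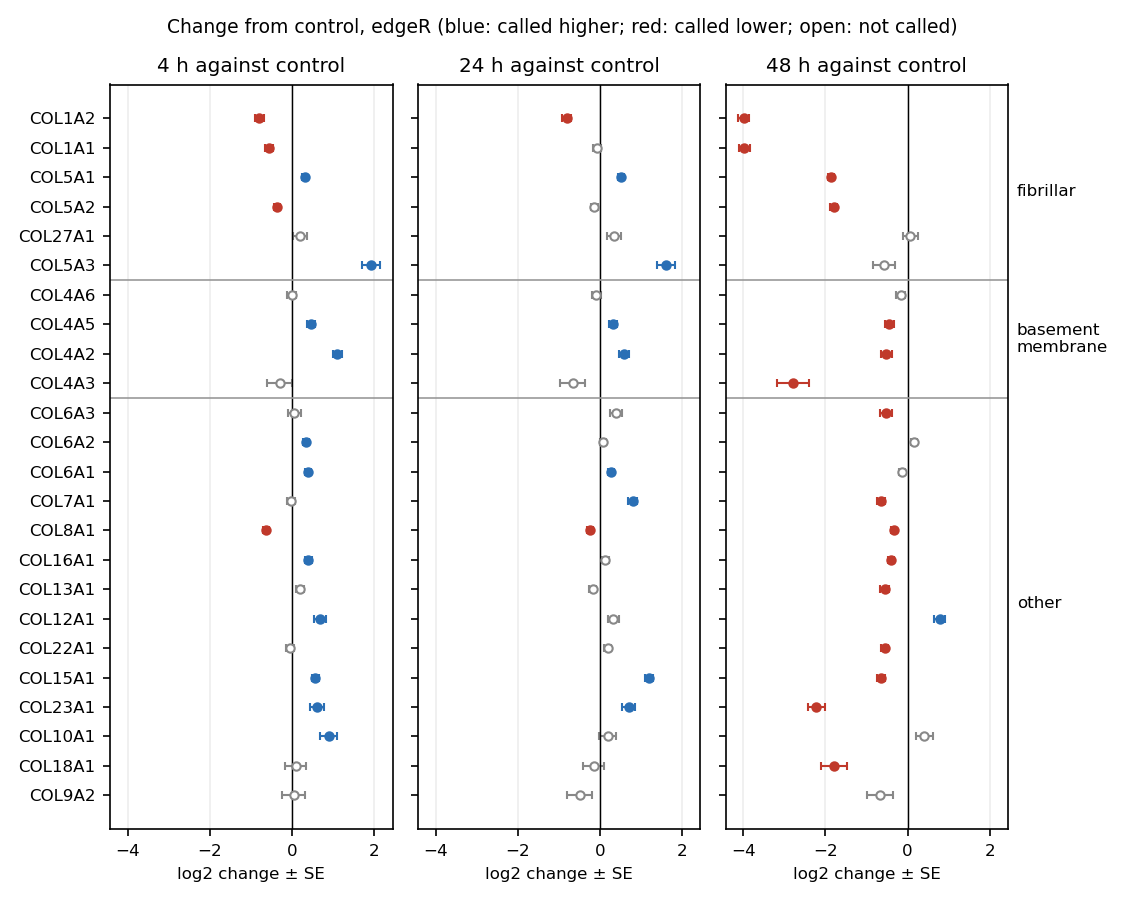
The log2 change from control (with its standard error) of each detected collagen chain gene at 4, 24 and 48 h, from edgeR. Blue points were called higher, red points lower and open points neither, and the right panel holds 16 red points and 1 blue one.

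The fibrillar class lost the most. Its summed level over 11 genes was 1095 and 1114 CPM in control, then 772 and 794 after 4 h, 876 and 857 after 24 h and 120.3 and 148 after 48 h. The 48 h sum was 134 ± 19.7 CPM (mean ± SD, n = 2) against 1104 ± 13.5 in control, 8.23-fold lower, and no library of another group came near it. The 2 type I genes alone had mean sums of 831 CPM in control, 495 at 4 h, 534 at 24 h and 52.5 at 48 h. The lower fibrillar sums at 4 h and 24 h thus came from type I. Of the type V chains, COL5A1 and COL5A3 rose at these times while COL5A2 lay below control. By contrast the type IV sum over 6 genes went from 58.2 ± 0.400 CPM in control to 84.4 ± 7.40 at 4 h, 69.8 ± 1.02 at 24 h and 43.9 ± 0.992 at 48 h. The sum over the 26 other chains went from 4705 ± 160 to 5443 ± 551, 5738 ± 2.84 and 4045 ± 203 CPM. Among the detected members, 4 of 6 fibrillar chains fell at 48 h, all 4 of them at least 2-fold (median log2 change -1.83). In type IV, 3 of 4 chains fell, 1 of them at least 2-fold (median -0.49), and of the others 9 of 14 fell, 2 of them at least 2-fold (median -0.54). Of all tested genes 33.5% were lower at 48 h, and 15.8% were at least 2-fold lower. The 2 of 14 other chains were near that last share. No test compared the classes, and the sums are values without one.

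**Figure D3:**
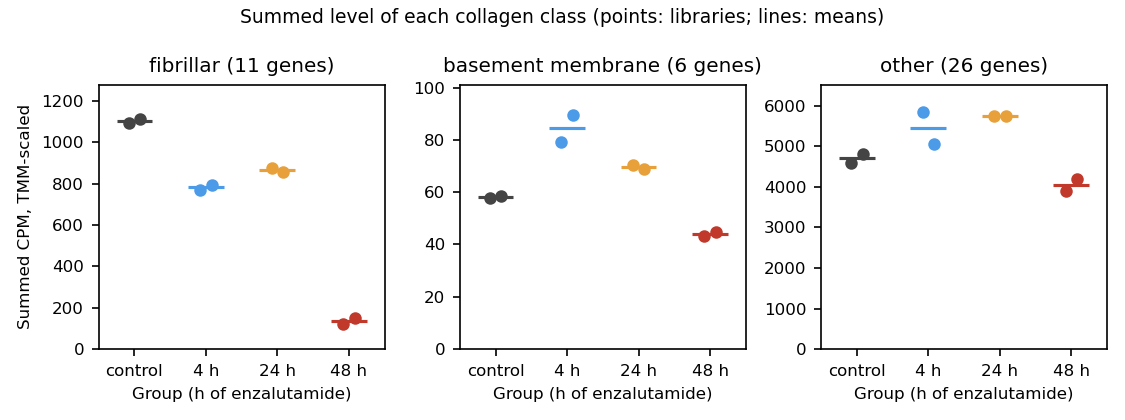
Summed TMM-scaled CPM of the fibrillar, basement membrane (type IV) and other collagen chains, with 1 point per library, a line at the mean of the 2, and a vertical axis of its own from 0 in each panel. The fibrillar sum falls from about 1104 to 134 CPM at 48 h, while the mean type IV sum is highest at 4 h and the mean sum of the others at 24 h, where 1 library of 4 h lies above both of 24 h.

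Type I collagen, the main collagen of bone, skin and scars, is built from the products of COL1A1 and COL1A2. COL1A2 had 680.4 and 682 CPM in control, then 383 and 403 after 4 h, 398 and 384 after 24 h and 35.9 and 50.2 after 48 h. It was thus lower in every treated library than in both controls, at about the same level at 4 h and 24 h, and lowest by far at 48 h. COL1A2 fell at 4 h (log2 change -0.79, SE 0.11, adjusted p = 0.000372), at 24 h (log2 change -0.80, SE 0.11, adjusted p = 0.000524) and 15.8-fold at 48 h (log2 change -3.99, SE 0.13, adjusted p = 1.2e-09). COL1A1 had 148 and 151 CPM in control, then 99.4 and 105 after 4 h, 140.1 and 145 after 24 h and 7.76 and 11.2 after 48 h. It dipped at 4 h, was close to control again at 24 h and was lowest at 48 h, with no overlap between the 48 h libraries and any other. COL1A1 fell at 4 h (log2 change -0.55, SE 0.10, adjusted p = 0.00253) and 15.8-fold at 48 h (log2 change -3.98, SE 0.13, adjusted p = 1.17e-09), whereas its difference at 24 h was small (log2 change -0.07, SE 0.10, adjusted p = 0.69). Between 4 h and 24 h COL1A1 rose (log2 change 0.48, SE 0.10, adjusted p = 0.00343), while COL1A2 did not pass that test (95% interval of its log2 change -0.31 to 0.30). Both genes fell between 24 h and 48 h, COL1A1 by 3.91 and COL1A2 by 3.19 on the log2 scale (adjusted p = 1.25e-09 and 4.43e-09).

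Within each library, the ratio of COL1A2 to COL1A1 counts per base of transcript followed that lag. The ratio was 5.71 and 5.62 in control, then 4.79 and 4.78 after 4 h, 3.53 and 3.30 after 24 h and 5.75 and 5.56 after 48 h. At 48 h the ratios lay on either side of the control values, although both messages had fallen 15.8-fold. In the usual type I molecule the COL1A1 chain outnumbers that of COL1A2, whereas in these libraries the COL1A2 message was the more abundant per base in all 8.

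Type V collagen lies inside type I fibrils and limits their width, and its 3 genes did not move together. COL5A1, which encodes the chain present in most type V molecules, had 146 and 152 CPM in control, then 185 and 183 after 4 h, 218 and 211 after 24 h and 39.0 and 43.4 after 48 h. It was above both controls in every library of 4 h and 24 h and below them in both at 48 h. COL5A1 rose at 4 h (log2 change 0.31, SE 0.07, adjusted p = 0.00548) and 24 h (log2 change 0.52, SE 0.07, adjusted p = 0.000251), then fell to 3.62-fold below control at 48 h (log2 change -1.86, SE 0.07, adjusted p = 3.64e-09). Without control replicate 1 its change at 4 h was 0.27 with an adjusted p of 0.0589. COL5A2, the usual partner chain, had 112 and 121 CPM in control, then 91.9 and 89.6 after 4 h, 107 and 105 after 24 h and 30.7 and 36.1 after 48 h. Its 4 h and 24 h libraries all lay below the controls, unlike those of COL5A1, and its 48 h libraries were lowest. COL5A2 fell at 4 h (log2 change -0.36, SE 0.08, adjusted p = 0.00631) and at 48 h (log2 change -1.80, SE 0.08, adjusted p = 1.57e-08), while at 24 h its log2 change was -0.13 (adjusted p = 0.257). The 4 h call of COL5A2 was lost without control replicate 2 (-0.31, adjusted p = 0.0673) and without 4 h replicate 2 (-0.34, adjusted p = 0.0599). The ratio of COL5A1 to COL5A2 counts per base accordingly stood at 1.09 and 1.06 in control, then 1.69 and 1.71 after 4 h, 1.70 and 1.67 after 24 h and 1.06 and 1.00 after 48 h.

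COL5A3, the least abundant chain of type V, made the largest relative rise of any detected member at 4 h. It had 1.417 and 1.55 CPM in control, then 5.48 and 5.80 after 4 h, 5.07 and 3.99 after 24 h and 1.19 and 0.791 after 48 h. The 4 h and 24 h libraries stood well above the controls, and those of 48 h below them. COL5A3 rose 3.79-fold at 4 h (log2 change 1.92, SE 0.22, adjusted p = 9.34e-05) and 3.05-fold at 24 h (log2 change 1.61, SE 0.22, adjusted p = 0.000458). At 48 h it did not pass the test against control (log2 change -0.58, SE 0.27, adjusted p = 0.0804) but was lower than at 24 h (log2 change -2.19, SE 0.24, adjusted p = 1e-05). In the GENCODE v29 annotation the antisense gene AC008742.1 shares 4.37% of the exonic bases of COL5A3, and since the use of strand in counting is not given, reads of the 2 cannot be told apart. COL27A1, a fibrillar collagen first described in cartilage, had 5.72 and 4.83 CPM in control, then 5.12 and 6.88 after 4 h, 6.25 and 7.20 after 24 h and 5.24 and 5.84 after 48 h, and passed no test. Its log2 change at 48 h was 0.07 with a 95% interval of -0.43 to 0.57, and it turned to -0.21 with library totals.

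**Figure D4:**
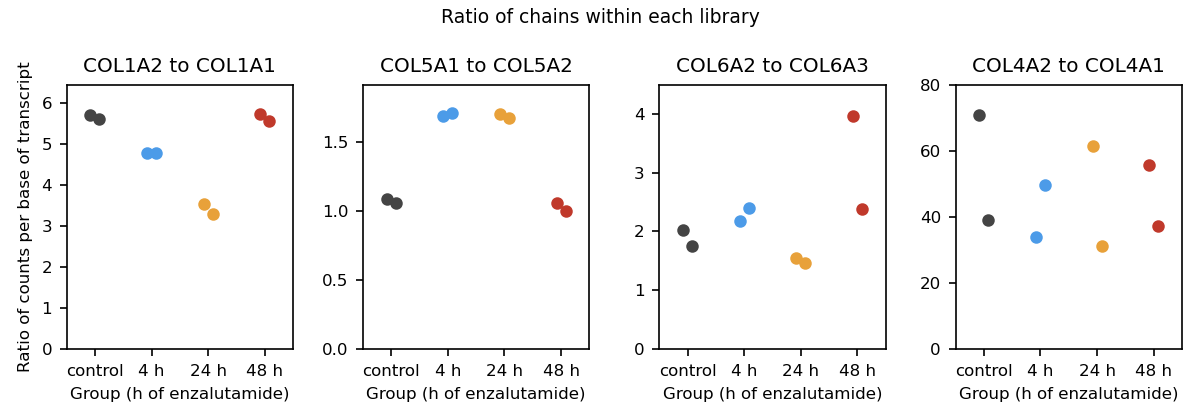
Ratio of the counts per base of transcript of 2 chains of the same collagen type, with 1 point per library in each of the 4 groups and axes from 0. COL1A2 to COL1A1 is lowest at 24 h (3.53 and 3.30), COL5A1 to COL5A2 is high at 4 h and 24 h and near 1 otherwise, COL6A2 to COL6A3 has its highest value in 1 library of 48 h (3.96), the other (2.38) lying among those of 4 h, and COL4A2 to COL4A1 spreads widely within each group.

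In type IV collagen the chains COL4A2 and COL4A5 rose early and fell below control by 48 h. COL4A2, whose usual partner is COL4A1, had 15.8 and 16.5 CPM in control, then 32.0 and 37.4 after 4 h, 26.9 and 21.7 after 24 h and 11.2 and 11.3 after 48 h. The groups did not overlap, with 4 h highest, then 24 h, control and 48 h. COL4A2 rose 2.15-fold at 4 h (log2 change 1.11, SE 0.12, adjusted p = 6.62e-05), was above control at 24 h (log2 change 0.59, SE 0.12, adjusted p = 0.00515) and fell at 48 h (log2 change -0.52, SE 0.13, adjusted p = 0.00357). The 24 h call was lost without control replicate 1 (0.56, adjusted p = 0.0558) or without 24 h replicate 1 (0.43, adjusted p = 0.0718). The antisense gene COL4A2-AS1 shares 0.624% of the exonic bases of COL4A2. COL4A1 itself was not detected, so the ratio of COL4A2 to COL4A1 counts per base lay between 31.4 and 70.9 over the 8 libraries, a range as wide within groups as between them.

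COL4A5 and COL4A6 form the network of skin and smooth muscle basement membranes and share a promoter region on the X chromosome. COL4A5 had 20.9 and 18.3 CPM in control, then 25.8 and 28.6 after 4 h, 24.7 and 24.6 after 24 h and 13.4 and 15.2 after 48 h. It was above both controls in all 4 h and 24 h libraries and below them at 48 h. COL4A5 rose at 4 h (log2 change 0.47, SE 0.10, adjusted p = 0.00636) and 24 h (log2 change 0.33, SE 0.10, adjusted p = 0.0417) and fell at 48 h (log2 change -0.45, SE 0.11, adjusted p = 0.00316). Its 4 h call was lost without control replicate 2 (0.38, adjusted p = 0.0753) or 4 h replicate 2 (0.39, adjusted p = 0.0716), and the 24 h call failed in each fit that left out a library of the control, 4 h or 24 h group (0.24 to 0.43, adjusted p = 0.0561 to 0.261), with DESeq2 (adjusted p = 0.0741) and with library totals (adjusted p = 0.105). COL4A6 had 19.4 and 20.6 CPM in control, then 18.6 and 21.1 after 4 h, 17.2 and 20.4 after 24 h and 18.0 and 17.5 after 48 h. Its 4 h and 24 h libraries overlapped the controls, those of 48 h lay just below, and it passed no test, with a log2 change at 48 h of -0.17 (95% interval -0.48 to 0.14). COL4A3, a chain of kidney and lung basement membranes, had 1.59 and 2.47 CPM in control, then 1.76 and 1.56 after 4 h, 1.10 and 1.47 after 24 h and 0.374 and 0.206 after 48 h. It was low throughout, its control and 4 h libraries overlapped, and it fell 6.90-fold at 48 h (log2 change -2.79, SE 0.40, adjusted p = 8.16e-05), from 56 and 86 counts to 11 and 6.

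The early rises and late falls of COL4A2 and COL4A5 also held between the treated groups. From 24 h to 48 h, COL4A2 fell by 1.11 and COL4A5 by 0.78 on the log2 scale (adjusted p = 1.2e-05 and 5.81e-05). After correction for the length and GC content of transcripts, the 48 h differences from control were -0.26 for COL4A2 (adjusted p = 0.0785) and -0.13 for COL4A5 (adjusted p = 0.298), and neither call held. Counting COL7A1, COL15A1 and COL18A1, which also lie in or at basement membranes, with type IV gave 6 of 7 lower at 48 h. Of all tested genes 33.5% were lower at that time.

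At 48 h the type VI chains differed less from control than any fibrillar chain that fell. COL6A1 had 837 and 808 CPM in control, then 1109.6 and 1053 after 4 h, 1029 and 953 after 24 h and 794 and 706 after 48 h. Its 4 h and 24 h libraries were above the controls, and those of 48 h just below. COL6A1 rose at 4 h (log2 change 0.39, SE 0.07, adjusted p = 0.00166) and 24 h (log2 change 0.27, SE 0.07, adjusted p = 0.0182), and at 48 h its log2 change was -0.13 (adjusted p = 0.112). The 24 h call was lost without control replicate 1 (adjusted p = 0.0735), control replicate 2 (adjusted p = 0.117) or 24 h replicate 1 (0.21, adjusted p = 0.163). COL6A2 had 1270.1 and 1246 CPM in control, then 1694 and 1489 after 4 h, 1340.2 and 1313 after 24 h and 1505 and 1309 after 48 h. All treated libraries were above both controls, yet only the 4 h group passed (log2 change 0.34, SE 0.08, adjusted p = 0.00758), and that call was lost without control replicate 2 (adjusted p = 0.0604) or 4 h replicate 1 (adjusted p = 0.099). At 48 h COL6A2 had a log2 change of 0.16 (adjusted p = 0.0859) that turned to -0.12 with library totals. With the length and GC correction it was 0.34 and passed the test.

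COL6A3, the longest chain of type VI, had 1956 and 2207 CPM in control, then 2414 and 1926 after 4 h, 2692 and 2794 after 24 h and 1179 and 1709 after 48 h. The 48 h libraries stood apart from each other and both lay below the controls, while the 4 h libraries spanned both control values. COL6A3 fell at 48 h (log2 change -0.53, SE 0.15, adjusted p = 0.00789), and without control replicate 2 the change was -0.43 with an adjusted p of 0.0675. With the length and GC correction it was -0.26. At 24 h its log2 change of 0.40 did not pass (adjusted p = 0.0754), and the fall from 24 h to 48 h did (log2 change -0.93, SE 0.15, adjusted p = 0.000191). The ratio of COL6A2 to COL6A3 counts per base was 2.02 and 1.75 in control, then 2.18 and 2.40 after 4 h, 1.55 and 1.46 after 24 h and 3.96 and 2.38 after 48 h, and its 48 h value rested in part on the spread of COL6A3.

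As a share of all collagen counts, type VI grew from 70.7 and 71.1% in the control libraries to 85.5 and 85.0% at 48 h, passing through 78.1 and 75.3% after 4 h and 75.7 and 76.0% after 24 h. The fibrillar share went from 19.1 and 18.6% over 11.5 and 13.4% after 4 h and 13.1 and 12.9% after 24 h to 2.96 and 3.38% after 48 h. Type I alone went from 14.4 and 13.9% to 1.07 and 1.40%. Shares of a sum move against each other, and the summed type VI level itself was 3601 ± 175 CPM at 48 h against 4162 ± 140 in control.

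Collagens that sit on the surface of fibrils, the FACIT group, split at 48 h. COL12A1, which links fibrils to their surroundings, had 60.4 and 73.5 CPM in control, then 120.2 and 96.6 after 4 h, 79.4 and 88.6 after 24 h and 101 and 129 after 48 h. All treated libraries lay above both controls. COL12A1 rose at 4 h (log2 change 0.69, SE 0.14, adjusted p = 0.00341) and at 48 h (log2 change 0.78, SE 0.14, adjusted p = 0.000403), but not past the threshold at 24 h (log2 change 0.33, SE 0.14, adjusted p = 0.113). It was the only detected member called higher at 48 h than at 24 h (log2 change 0.45, SE 0.14, adjusted p = 0.012). That call was lost with library totals (0.24, adjusted p = 0.16), without 24 h replicate 1 (0.38) and without 48 h replicate 2 (0.27).

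COL16A1 had 78.6 and 75.0 CPM in control, then 100.3 and 103 after 4 h, 84.3 and 85.5 after 24 h and 53.3 and 63.5 after 48 h. The order was 4 h above 24 h, control and 48 h, with no overlap. COL16A1 rose at 4 h (log2 change 0.40, SE 0.08, adjusted p = 0.00395) and fell at 48 h (log2 change -0.40, SE 0.08, adjusted p = 0.00129), and with the length and GC correction the 48 h change was -0.15 (adjusted p = 0.0792). COL22A1, a collagen of tissue junctions such as muscle and tendon, had 49.9 and 52.3 CPM in control, then 48.8 and 50.0 after 4 h, 64.4 and 52.4 after 24 h and 34.6 and 34.6 after 48 h. Its control and 4 h libraries overlapped, those of 24 h lay just above, and it fell at 48 h (log2 change -0.56, SE 0.09, adjusted p = 0.000295). COL9A2, a chain of cartilage, was detected at 0.647 to 1.38 CPM and passed no test.

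COL7A1 and COL15A1 peaked at 24 h. COL7A1, the collagen of anchoring fibrils below epithelia, had 119.9 and 127 CPM in control, then 132 and 109 after 4 h, 216 and 213 after 24 h and 72.4 and 85.3 after 48 h. The 24 h libraries were far above all others and the 48 h libraries below all others. COL7A1 rose at 24 h (log2 change 0.80, SE 0.10, adjusted p = 0.000189) and fell at 48 h (log2 change -0.65, SE 0.10, adjusted p = 0.000124), with a log2 change of -0.03 at 4 h. COL15A1, of the multiplexin group at basement membranes, had 18.8 and 20.5 CPM in control, then 27.4 and 30.7 after 4 h, 44.3 and 46.0 after 24 h and 12.1 and 12.996 after 48 h. It climbed from control over 4 h to 24 h without overlap and was lowest at 48 h. COL15A1 rose at 4 h (log2 change 0.57, SE 0.09, adjusted p = 0.00111) and 2.30-fold at 24 h (log2 change 1.20, SE 0.09, adjusted p = 9.38e-06), and fell at 48 h (log2 change -0.64, SE 0.10, adjusted p = 0.000147). The antisense gene AL136084.3 shares 2.49% of its exonic bases. COL18A1, the multiplexin from which endostatin is cut, had 1.98 and 2.22 CPM in control, then 2.12 and 2.32 after 4 h, 1.44 and 2.35 after 24 h and 0.545 and 0.653 after 48 h. Its first 3 groups overlapped, and it fell 3.49-fold at 48 h (log2 change -1.80, SE 0.32, adjusted p = 0.000408).

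Among collagens that span the cell membrane, COL23A1 had 15.0 and 15.1 CPM in control, then 20.4 and 25.7 after 4 h, 24.3 and 24.9 after 24 h and 4.12 and 2.30 after 48 h. It was higher in all 4 h and 24 h libraries and lowest at 48 h. COL23A1 rose at 4 h (log2 change 0.62, SE 0.17, adjusted p = 0.017) and 24 h (log2 change 0.71, SE 0.16, adjusted p = 0.0109) and fell 4.67-fold at 48 h (log2 change -2.22, SE 0.20, adjusted p = 2.52e-06), the largest fall outside the fibrillar and type IV classes. Its 4 h call was lost without control replicate 1 (adjusted p = 0.0952), control replicate 2 (adjusted p = 0.0913) or 4 h replicate 2 (0.44, adjusted p = 0.178), and its 24 h call without any 1 of the 4 control and 24 h libraries (adjusted p = 0.0625 to 0.0826). COL13A1 had 79.4 and 72.3 CPM in control, then 86.0 and 88.4 after 4 h, 70.6 and 64.2 after 24 h and 56.4 and 46.2 after 48 h. Its 48 h libraries were below all others, and of its differences from control only this passed (log2 change -0.56, SE 0.10, adjusted p = 0.000316).

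The short-chain network collagens went separate ways. COL8A1, found around blood vessels and in Descemet's membrane, had 97.9 and 111 CPM in control, then 66.4 and 67.0 after 4 h, 86.1 and 91.1 after 24 h and 82.8 and 81.6 after 48 h. All treated libraries were below the controls and lowest at 4 h. COL8A1 fell at 4 h (log2 change -0.64, SE 0.07, adjusted p = 9.8e-05), 24 h (log2 change -0.24, SE 0.07, adjusted p = 0.0385) and 48 h (log2 change -0.34, SE 0.07, adjusted p = 0.00145). The 24 h call was lost in 5 of the 8 fits that left out a library (-0.14 to -0.28, adjusted p = 0.0705 to 0.299), and with the length and GC correction the 48 h change was -0.02 (adjusted p = 0.755). COL10A1, known from growth plate cartilage, had 3.29 and 5.26 CPM in control, then 7.64 and 8.24 after 4 h, 5.36 and 4.35 after 24 h and 6.06 and 5.29 after 48 h. It was highest at 4 h, where it rose (log2 change 0.90, SE 0.21, adjusted p = 0.00846), but not without control replicate 1 (0.59, adjusted p = 0.0737) or 4 h replicate 2 (0.84, adjusted p = 0.0626), while its 24 h libraries overlapped the controls and its 48 h libraries did not pass.

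Between treated groups the main step lay after 24 h. From 4 h to 24 h, 6 detected members rose and 6 fell, against 41.5% of all genes called (21.2% higher and 20.3% lower). Of these 12, COL7A1 (log2 change 0.83, SE 0.10, adjusted p = 5.05e-05), COL15A1 (log2 change 0.63, SE 0.09, adjusted p = 0.000233), COL1A1 and COL8A1 (log2 change 0.41, SE 0.07, adjusted p = 0.00114) rose under every alternative tried, and the other 8 did not hold under all of them. Without 24 h replicate 2 the 12 calls became 5, all higher, and without 4 h replicate 1, 4 h replicate 2 or 24 h replicate 1 they became 6, 6 and 7. The shares of all genes called in those fits are not given here. From 24 h to 48 h, 1 rose and 17 fell, against 66.8% of all genes (31.5% higher and 35.3% lower), and 11 of the 17 fell at least 2-fold, as did 16.1% of all genes. From 4 h to 48 h, 1 rose and 17 fell, against 69.5% (34.5% higher and 35% lower), and 10 of the 17 fell at least 2-fold (17.8% of all genes). The gene that rose was COL8A1 (log2 change 0.30, SE 0.07, adjusted p = 0.00356), which lost that call with library totals (0.08, adjusted p = 0.341). COL6A3 fell from 4 h to 48 h (log2 change -0.59, SE 0.15, adjusted p = 0.00399), and without 4 h replicate 1 its change was -0.41 with an adjusted p of 0.0555.

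Several members were higher than control early and lower than control at 48 h, with the direct contrast of the times also called. These were COL5A1, COL4A2, COL4A5, COL15A1, COL16A1, COL23A1 and COL7A1, the last only at 24 h and COL16A1 only at 4 h. The steps down from 24 h to 48 h were steepest in COL23A1 (log2 change -2.93, SE 0.20, adjusted p = 2.54e-07) and COL5A1 (log2 change -2.38, SE 0.07, adjusted p = 8.26e-10), and COL15A1 fell by 1.84 on the log2 scale. COL5A3 had the same shape, but its 48 h level did not differ from control past the threshold.

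Genes that modify, fold, cut and cross-link collagen moved in both directions. The counts are over the tested genes of each list, read against the same background shares as above. Of 14 genes that modify prolines and lysines, the numbers higher and lower were 1 and 2 after 4 h, 3 and 5 after 24 h, then 5 and 4 after 48 h (median log2 change at 48 h -0.06). At 48 h LEPREL4, now named P3H4, fell from 74.9 ± 0.739 to 16.7 ± 2.32 CPM, a log2 change of -2.17 (SE 0.09, adjusted p = 8.62e-09). LEPRE1, now P3H1, fell from 113 ± 2.22 to 50.1 ± 2.57 CPM, a log2 change of -1.17 (SE 0.07, adjusted p = 8.56e-08). CRTAP, the partner of LEPRE1, rose from 548 ± 12.3 to 762 ± 6.27 CPM, a log2 change of 0.47 (SE 0.05, adjusted p = 1.37e-05). PLOD2, a lysyl hydroxylase, fell by 0.37 on the log2 scale (adjusted p = 0.000155).

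Of 12 genes of folding and export from the endoplasmic reticulum, 1 was lower after 4 h, 1 was higher and 4 lower after 24 h, then 6 were higher and 4 lower after 48 h (median 0.18). The 1 that fell at 4 h was SERPINH1, which encodes the collagen chaperone HSP47, from 241 ± 2.49 to 171 ± 2.68 CPM, a log2 change of -0.49 (SE 0.07, adjusted p = 0.000275). SERPINH1 was also lower than control at 24 h (log2 change -0.61, adjusted p = 8.84e-05) and 48 h (log2 change -0.64, adjusted p = 6.39e-06). It was chosen for naming after its value was seen. Coat proteins of the vesicles that carry procollagen rose at 48 h, SEC24D from 149.6 ± 9.25 to 333 ± 17.7 CPM, a log2 change of 1.15 (SE 0.07, adjusted p = 8.79e-08), SEC31A by a log2 change of 0.74 and SEC13 by 0.76 (adjusted p = 7.89e-07 and 1.9e-06). KLHL12, which helps to enlarge those vesicles, fell from 55.6 ± 0.614 to 31.8 ± 1.87 CPM, a log2 change of -0.80 (SE 0.07, adjusted p = 2.95e-06).

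Of 6 genes of propeptide cleavage, 4 rose at 48 h (median 0.49), after 1 fall at 4 h and 2 rises at 24 h. The 4 were PCOLCE2 and PCOLCE, enhancers of the cleaving enzyme, with log2 changes of 0.58 and 0.53 (adjusted p = 7.66e-05 and 9.68e-05), the enzyme BMP1 itself with 0.45 (adjusted p = 0.000391) and ADAMTS2 with 0.57 (adjusted p = 0.00103). Of 7 cross-linking genes, the numbers higher and lower were 3 and 1 after 4 h and again after 24 h, and 3 were lower after 48 h (median -0.36). LOXL1, a lysyl oxidase relative, fell at 48 h from 194 ± 5.60 to 54.6 ± 6.04 CPM, a log2 change of -1.83 (SE 0.09, adjusted p = 3.28e-08), LOXL2 fell by 0.50 and PXDN, which cross-links type IV collagen, by 1.04 on the log2 scale (adjusted p = 1.17e-05 and 0.000619).

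Of 8 collagen receptor genes, 1 was higher and 1 lower after 4 h, 2 were higher after 24 h, then 4 were higher and 3 lower after 48 h (median 0.17). DDR2, a receptor tyrosine kinase for fibrillar collagen, rose from 98.2 ± 4.20 to 185 ± 12.3 CPM, a log2 change of 0.91 (SE 0.09, adjusted p = 3.41e-06), ITGB1 and ITGA11 rose by log2 changes of 0.22 and 0.53 (adjusted p = 0.00249 and 0.00253), and ITGA2 fell by 0.49 (adjusted p = 0.000396). Of 8 genes of collagen breakdown, the numbers higher and lower were 2 and 3 after 4 h, 1 and 4 after 24 h, then 6 and 1 after 48 h (median 0.62). MMP14, a membrane-bound collagenase, rose at 48 h from 736 ± 25.1 to 1824 ± 149 CPM, a log2 change of 1.31 (SE 0.07, adjusted p = 3.33e-08), and CTSK, FAP and MMP2 rose by log2 changes of 0.67, 0.73 and 0.47 (adjusted p = 4.52e-06, 8.47e-06 and 9.05e-06).

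Of 12 genes of fibril-binding and elastic matrix proteins, the numbers higher and lower were 1 and 3 after 4 h, 2 and 4 after 24 h, then 3 and 7 after 48 h (median -0.23). THBS1 fell at 48 h from 27.1 ± 2.09 to 10.8 ± 0.875 CPM, a log2 change of -1.33 (SE 0.10, adjusted p = 3.77e-07), after a rise at 4 h (log2 change 2.44, SE 0.09, adjusted p = 2.4e-08). LUM and DCN, small proteoglycans on fibrils, fell by 1.24 and 0.77 on the log2 scale at 48 h (adjusted p = 3.08e-05 and 0.00041), and fibronectin, FN1, rose from 3931 ± 420.3 to 6306 ± 124 CPM, a log2 change of 0.68 (SE 0.09, adjusted p = 5.75e-05). Of 14 laminin, nidogen and heparan sulphate proteoglycan genes of basement membranes, the numbers higher and lower were 3 and 2 after 4 h, 2 and 2 after 24 h, then 3 and 7 after 48 h (median -0.27). At 48 h AGRN, LAMA5 and LAMC1 fell, with log2 changes of -0.84, -0.65 and -0.51 (adjusted p = 4.82e-06, 0.000709 and 0.000722).

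Of 22 genes that regulate collagen transcription, the numbers higher and lower were 5 and 6 after 4 h, 5 and 1 after 24 h, then 8 and 8 after 48 h (median -0.07). TGFBR2, a receptor of TGF-beta, which raises collagen transcription, fell at 48 h from 138 ± 3.82 to 37.3 ± 4.48 CPM, a log2 change of -1.89 (SE 0.09, adjusted p = 1.38e-08), and SOX9, which drives cartilage collagens, fell from 11.7 ± 0.388 to 2.48 ± 0.200 CPM, a log2 change of -2.24 (SE 0.14, adjusted p = 1.52e-07). Of 2 genes whose proteins bind the GC box and the CCAAT box, SP1 rose from 97.2 ± 2.98 to 254 ± 17.1 CPM, a log2 change of 1.39 (SE 0.07, adjusted p = 3.36e-08), and NFYC from 43.2 ± 1.74 to 91.8 ± 3.53 CPM, a log2 change of 1.09 (SE 0.07, adjusted p = 1.54e-07). This list mixes activators with repressors. The median over all tested genes at 48 h was -0.02.

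Markers of other cell types were summed in the same libraries, in CPM. Of 6 fibroblast markers 5 were detected, with a summed level of 137 to 140 CPM in control and 111 and 111 at 48 h. Within that sum FAP was higher at 48 h (59.4 and 55.9 CPM against 33.2 and 36.2 in control). PDGFRB was lower (31.3 and 37.0 against 67.1 and 66.4), as were DCN, LUM and PDGFRA. The pericyte and smooth muscle list (4 of 7 detected) had 36.5 to 38.3 CPM in control and 15.1 to 16.2 at 48 h. The endothelial list (2 of 6 detected) had 18.7 to 19.3 and 5.28 to 5.88. It was carried by KDR, at 16.6 and 17.5 CPM in control and 3.44 and 4.85 at 48 h. TEK was also detected, at 1.33 and 1.15 CPM in control, while CDH5 and CLDN5 were at or near 0. The astrocyte list had 26.8 to 28.0 CPM in control and 7.36 to 7.59 at 48 h. The immune list (2 of 8 detected) had 882 to 951 CPM in control and 1254 to 1387 at 48 h, carried by CD68 and CSF1R, while CD3E and AIF1 were at 0 and PTPRC did not exceed 0.200 CPM. The neuron list (3 of 6 detected) had 38.4 to 39.9 CPM in control and 23.4 to 24.6 at 48 h, the oligodendrocyte list (1 of 5) 2.15 to 2.33 and 1.74 to 1.89, and of 5 epithelial markers 0 were detected. Their part in the collagen results was not tested.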

How the data were processed

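For each of 8 RNA-seq libraries of U87MG cells, the authors deposited 1 table of raw read counts by gene symbol, in whole numbers. Per the labels' protocols, total RNA was column-purified with DNase treatment. Per the submitters' processing notes, Bowtie and the builds hg19 and GRCh37 belong to the processing. The Bowtie version is not given in the sources used here, nor are the counter, gene models or strand setting, so reads of paralogs or overlapping genes may have been shared or split.

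Groups and replicate numbers came from the labels. The members were the symbols of the collagen chain pattern; members, classes, marker lists and gene lists were chosen with earlier results of these data known. The tests ran in edgeR 4.0.16 (R 4.3.3): filterByExpr kept 14448 genes, TMM scaled the libraries, and 1 quasi-likelihood fit of all 8 libraries had 1 coefficient per group and 4 residual degrees of freedom (biological coefficient of variation 7.15%). Adjusted p-values of genes are Benjamini-Hochberg values over all tested genes from this test. SE is the absolute log2 change over the square root of F. Library totals of 24620833 to 37162565 set the precision. The 28 date-like symbols were kept in the totals and, where they passed the filter, among the tested genes. Lengths were those of the longest GENCODE v29 transcript, matched by symbol for 88.4% of tested genes. The steps were tested on simulated data.

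Named with full values were detected members with a group mean of at least 5 CPM and the 3 called members per class with the largest change at 48 h. From each other list at most 4 called genes with the smallest p at 48 h were named. The result of 1 such gene is not reported here. Alternatives were DESeq2 1.42.0, limma-voom (limma 3.58.1), other scalings and filters, a replicate block, fits restricted to the compared groups, a length and GC correction, and each library left out in turn. Where that left a group with 1 library, it was assumed to vary like the others.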

Additional observations from a re-analysis of the deposited data

Results flagged for a closer look

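Some members had effects of opposite sign at different times, by a direct edgeR contrast of the times. Their values are log2 differences between 48 h and an earlier time, with adjusted p over all tested genes. COL5A1 differed by -2.38 between 48 h and 24 h (adjusted p = 8.26e-10) and by -2.16 between 48 h and 4 h (adjusted p = 1.15e-09). COL23A1 differed by -2.93 and -2.84 (adjusted p = 2.54e-07 and 2.75e-07), COL15A1 by -1.84 and -1.21 (adjusted p = 3.86e-08 and 8.13e-07), COL4A2 by -1.11 and -1.63 (adjusted p = 1.2e-05 and 5.23e-07) and COL4A5 by -0.78 and -0.93 (adjusted p = 5.81e-05 and 1.47e-05). COL7A1 differed by -1.44 between 48 h and 24 h (adjusted p = 2.51e-07), and COL16A1 by -0.80 between 48 h and 4 h (adjusted p = 5.83e-06). Both libraries of the earlier time lay above both controls in each of these genes, and both of 48 h lay below them. With the length and GC correction the change from control at 48 h no longer passed for COL4A2 (-0.26, adjusted p = 0.0785), COL4A5 (-0.13, adjusted p = 0.298) and COL16A1 (-0.15, adjusted p = 0.0792). The early rise was lost in some fits without 1 library for COL5A1 at 4 h, COL4A2 at 24 h, and COL4A5 and COL23A1 at both times.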

How the results depend on the processing

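Over all 90 calls of single members, 1529 of the alternative fits kept the direction and the call, 85 kept the direction without the call, and 0 turned the direction. Called under every alternative except the 2-fold threshold were 9 of 15 members at 4 h, 5 of 10 at 24 h, 12 of 17 at 48 h, 4 of 12 from 4 h to 24 h, 17 of 18 from 24 h to 48 h and 15 of 18 from 4 h to 48 h. These counts of 48 h include COL4A3 and COL18A1, which a filter of at least 5 CPM in 2 libraries left untested. With a log2 change of at least 1 as a further threshold, the counts in that order were 2, 2, 7, 0, 11 and 10. Leaving out 1 library at a time gave 5 to 13 calls at 24 h and 5 to 14 from 4 h to 24 h. With the replicate number as a block, 15, 10, 19, 12, 18 and 19 members were called, with COL6A1 and COL6A2 added at 48 h. The shares of all genes called with this block or with 1 library left out are not given here. These counts therefore show only how the calls of members moved. Same-numbered libraries hardly deviated together (correlations of 0.00 to 0.14). A pairing with a small effect would look the same, so these values cannot tell whether the numbers pair the libraries. With COL7A1, COL15A1 and COL18A1 counted as basement membrane genes, that class had 4 calls at 24 h, 6 at 48 h, 3 from 4 h to 24 h, 6 from 24 h to 48 h and 6 from 4 h to 48 h, and the other chains had 3 at 24 h. A detection threshold of 0.5 CPM gave 30 members and one of 5 CPM gave 21. Summed levels with library totals were 1184 CPM in control, 804 at 4 h and 889.5 at 24 h for fibrillar chains, 62.4, 71.6 and 38.8 in control, at 24 h and 48 h for type IV, and 5046, 5890.4 and 3579 at these times for the others. With DESeq2 size factors the 24 h sums were 853, 68.7 and 5645 CPM. Depth limits the members near 1 CPM most, where SEs reached 0.42 among those detected.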

Other observations

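Some listed symbols resemble the family but fall outside its naming pattern. COL4A3BP, a ceramide transfer protein and no collagen, had 1281 to 2098 counts per library. The pseudogenes COL6A4P1 and COL6A4P2 had 0 to 4 and 0 to 2 counts, and COL18A1-AS1 had 0 in all libraries. EMID2, an older symbol of COL26A1 in RefSeq, had 1 to 7 counts per library and was not counted as a member.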
